A study of Mus musculus with 4 samples.

Results

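CpG island shores are the stretches of DNA that flank CpG islands, and here they were the 2000 bp outside each edge of an island, minus any other island. They were examined in germ cells from testes of mice aged 21 days. The knockouts were 2 samples of genotype Np95fl/fl:Stra8-Cre, in which a Cre recombinase under Stra8 control deletes floxed Np95 in premeiotic germ cells. The controls were 2 Np95fl/fl samples, which carry the same floxed alleles without Cre. Per the labels' protocols, tubules were picked by hand and a 95 µm mesh removed interstitial cells, and no step named there removes Sertoli cells or germ cells without deletion. DNA was sequenced after bisulfite treatment by post-bisulfite adaptor tagging. The comparison addresses DNA methylation in germ cells without Np95.

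Islands were taken from the listed CpGs alone, as merged runs of 30 CpGs spanning under 500 bp. This gave 16077 autosomal islands with a median length of 1023 bp, and 32154 flanks. Of these flanks, 26971 (83.9%) had at least 10 CpGs with a value in all 4 samples, and these are the shores described. The remaining 5183 flanks fell below that minimum. The 987 shores with exactly 10 CpGs had median levels of 28.6% in knockouts and 53.6% in controls, and the 889 flanks with 9 CpGs, just outside, had 29.8% in knockouts and 55.4% in controls. A shore held between 10 and 87 measured CpGs, with a median of 21. Where islands lie close together their shores overlap, which was so for 3535 shores (13.1%), so shores are not all independent.

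Np95, also named Uhrf1, binds hemimethylated CpGs left by DNA replication and recruits the maintenance methyltransferase Dnmt1, so that a methylated CpG stays methylated through cell division. CpG islands mark most promoters and are usually unmethylated, while most CpGs elsewhere in the genome are methylated. A shore is where one state passes into the other, and shores are known for methylation that differs between cell types.

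The promoters of some genes lie in a shore and not in an island. The sequences of 4 of them are shown because they give the 2 directions of change CpG by CpG. They are the 2 largest losses and the 2 largest gains among protein-coding promoters that lie wholly in a shore of an island under 20% in controls, have at least 6 CpGs and have every CpG measured in all 4 samples. They were chosen on these values, so their differences are descriptions. Each sequence is the 250 bases before a RefSeq start in GRCm38.p6, the assembly of mm10, written 5′ to 3′ on the strand of the gene, with CpGs in capitals.
Apc2: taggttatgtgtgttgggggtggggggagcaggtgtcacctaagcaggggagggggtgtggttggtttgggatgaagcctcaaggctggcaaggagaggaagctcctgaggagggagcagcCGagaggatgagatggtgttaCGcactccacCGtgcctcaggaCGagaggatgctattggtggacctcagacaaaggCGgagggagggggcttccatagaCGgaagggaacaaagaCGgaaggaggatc
Tjp3: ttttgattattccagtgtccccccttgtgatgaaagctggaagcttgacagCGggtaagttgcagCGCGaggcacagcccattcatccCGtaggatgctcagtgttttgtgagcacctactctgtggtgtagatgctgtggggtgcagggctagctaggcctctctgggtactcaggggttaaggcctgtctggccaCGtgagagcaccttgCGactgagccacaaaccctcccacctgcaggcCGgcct
Apold1: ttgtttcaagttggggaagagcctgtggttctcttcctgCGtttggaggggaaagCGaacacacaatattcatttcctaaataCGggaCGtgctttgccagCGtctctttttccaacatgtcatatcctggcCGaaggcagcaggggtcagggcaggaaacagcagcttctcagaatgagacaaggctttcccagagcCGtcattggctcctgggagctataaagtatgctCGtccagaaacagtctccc
Hsf2bp: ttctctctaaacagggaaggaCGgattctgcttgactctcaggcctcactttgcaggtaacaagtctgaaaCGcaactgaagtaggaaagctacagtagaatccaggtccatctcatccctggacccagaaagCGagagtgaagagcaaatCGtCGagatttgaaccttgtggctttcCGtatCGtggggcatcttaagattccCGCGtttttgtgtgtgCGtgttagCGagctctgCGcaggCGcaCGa

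The Apc2 stretch (chr10:80300792-80301041, plus strand) begins 1286 bp outside an island and holds 7 CpGs. Apc2 encodes a relative of the Apc tumor suppressor. Its mean level was 23.8% and 22.6% in the knockouts, against 85.7% and 89.1% in the controls. At each of its 7 CpGs both knockouts were below both controls. The Tjp3 stretch (chr10:81291268-81291517, minus strand), before a gene for a tight junction scaffold protein, was at 31.4% and 36.2% in the knockouts, against 82.0% and 90.6% in the controls.

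The gains had the opposite order. The Hsf2bp stretch (chr17:32034509-32034758, minus strand) lies 1253 bp outside an island and holds 14 CpGs, several of them close to the start. Hsf2bp encodes a germ cell protein that brings Brca2 to meiotic DNA breaks. Its level was 13.5% and 18.5% in the knockouts, against 5.94% and 6.23% in the controls. The last CpG before its start was at 17.9% and 19.4% in the knockouts, against 4.45% and 1.72% in the controls. At 3 of the 14 CpGs (the first, the sixth and the ninth) the knockouts were not both above both controls. The first, the farthest from the start, had 10.3% and 12.8% in the knockouts, against 12.6% and 15.8% in the controls. The Apold1 stretch (chr6:134981751-134982000, plus strand), before a gene for an endothelial early-response protein, was at 16.5% and 11.7% in the knockouts, against 4.36% and 3.81% in the controls.

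**Figure D1:**
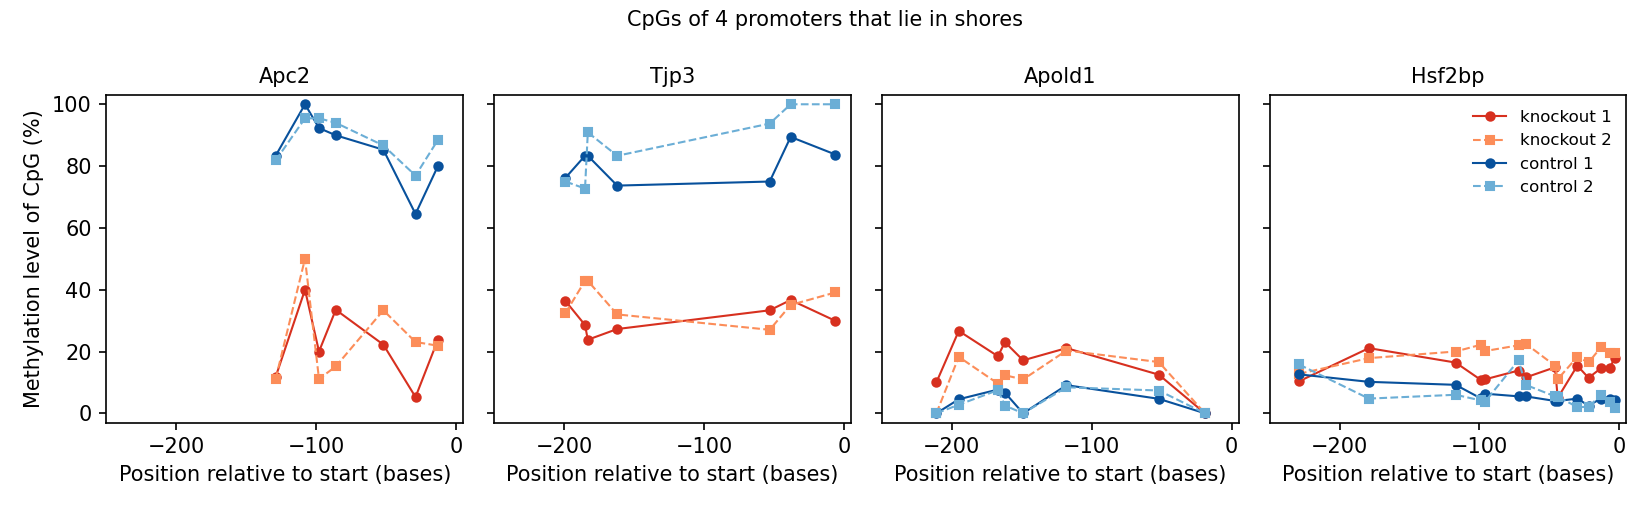
Methylation level (%) of each CpG in the 4 promoters printed above, by position relative to the gene start in bases (knockouts red and orange, controls blue, 1 line per sample). In Apc2 and Tjp3 every CpG is lower in both knockouts, and in Hsf2bp the mean of 16.0% in knockouts lies above that of 6.08% in controls.

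Of 1119 promoter stretches that lay wholly in a shore and had a measured cytosine, only a part is described here. Most of that part was unmethylated in both groups. The same conditions, with chromosome 18 included and unmeasured CpGs allowed, were met by 300 promoter stretches of 284 protein-coding genes. Their differences ran from -64.2 to 14.7 points, so the gains printed above are not the largest of these 300. Among them, 265 were under 20% in controls, with medians of 1.51% in knockouts and 1.63% in controls. Of these, 55 had both knockouts above both controls and 47 had both below, and these counts were not tested. Over all shores, 90.3% had both knockouts below both controls and 2.77% had both above. The 11 stretches at 80% or more in controls had medians of 43.3% in knockouts and 85.4% in controls, and both knockouts were below both controls in all 11.

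Over all shores, methylation was far lower in the knockouts. The mean over 1018921 shore cytosines was 25.6% and 25.7% in the knockouts, against 44.5% and 47.8% in the controls. The groups did not overlap, and the controls differed from each other more than the knockouts did. Knockouts averaged 25.6% ± 0.0833 and controls 46.2% ± 2.35 (SD, n = 2 each), a difference of -20.6 points and a retained share (the knockout mean as a share of the control mean) of 55.5%. With 2 samples on each side an exact permutation test (two-sided) cannot go below p = 0.333, which was its result here. The labels name no separate animals for the samples, so the p-values describe how these samples vary, and that variation may be technical. With islands defined by 40 CpGs per 500 bp, which changes both the edges and the set of islands and leaves 20121 shores, the difference was -15.2 points.

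Methylation rose with distance from the island in both groups, but the rise was shallower in knockouts. In the first 200 bp outside the edge, the level was 7.58% and 7.06% in the knockouts, against 9.47% and 9.999% in the controls. In the last 200 bp, up to 2000 bp, it was 38.5% and 39.2% in the knockouts, against 70.4% and 74.8% in the controls. Between these ends the gap widened with distance. It was -12.7 points at 401 to 600 bp, where knockouts averaged 18.4% ± 0.228 and controls 31.0% ± 2.10, and -29.4 points at 1001 to 1200 bp, where knockouts averaged 33.9% ± 0.496 and controls 63.3% ± 3.18 (SD, n = 2 each). In none of the 10 bins did the groups overlap. The small difference in the first bin, -2.42 points, changed with the islands used. In shores of islands under 20% in controls, with the same edges, it was -1.09 points. With islands of 40 CpGs per 500 bp, which changes both the edges and the set of islands, it was -0.466 points, with 3.28% in knockouts and 3.74% in controls, and with equal weight for every shore it was -3.07 points.

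The share of methylation retained over all shores was highest next to the island, where levels were lowest, so distance and level change together. It was 75.2% in the first bin, 66.7% at 201 to 400 bp, 59.3% at 401 to 600 bp and 55.8% at 601 to 800 bp, and from 1001 bp outward it lay between 53.2% and 53.5%. In shores of islands at 80% or more in controls, the share was 59.6% in the first bin and 57.7% in the last. Sequence at least 4000 bp from any island, called distal here, retained 53.7%, with 43.0% and 43.4% in the knockouts and 78.4% and 82.6% in the controls over 18336503 cytosines. The log2 ratio of the level in a bin to the distal level of the same sample compares the shares directly, since equal shares give no difference between groups. In the first bin this ratio was -2.50 and -2.62 in the knockouts, against -3.05 and -3.05 in the controls, a difference of 0.49 (exact permutation p = 0.333). At 801 to 1000 bp the difference was 0.02 and the groups overlapped. Over whole shores the ratio was -0.75 and -0.76 in the knockouts, against -0.82 and -0.79 in the controls, a difference of 0.05 that was larger than the SD of 0.02 between controls.

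**Figure D2:**
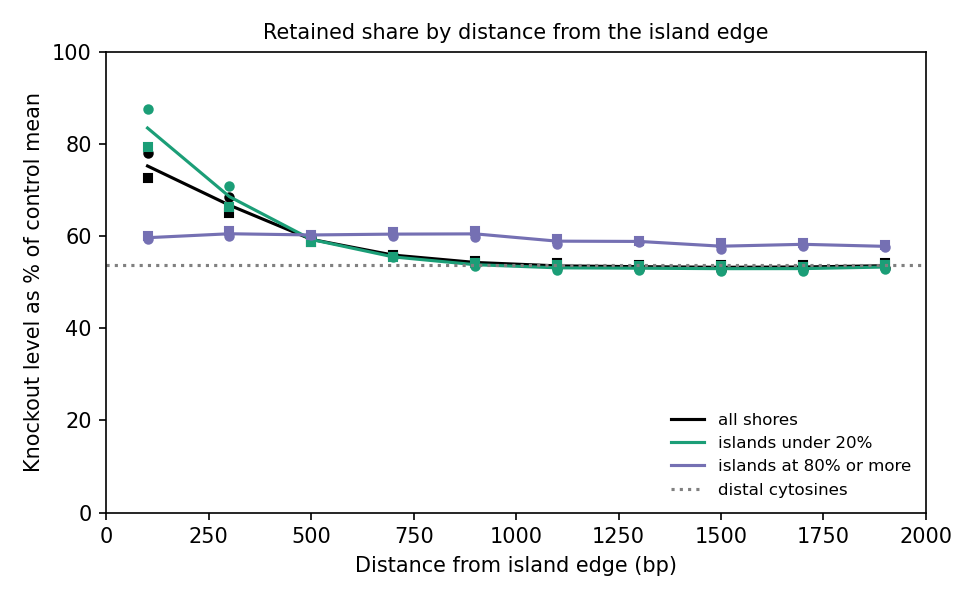
Knockout level as a percentage of the control mean (y axis) by distance from the island edge in bp (x axis), for all shores and for shores of islands under 20% and at 80% or more in controls. Lines are the mean of the 2 knockouts, circles and squares are knockouts 1 and 2, and the dotted line is the 53.7% retained by distal cytosines; the all-shore line falls to that level by about 1000 bp.

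The position of the rise was compared next. For shores of islands under 20% in controls, the distance at which a sample reached 0.5 of its own level in the last bin was 564 and 582 bp in the knockouts, against 619 and 601 bp in the controls. The groups did not overlap, and the difference between their means of 573 bp in knockouts and 610 bp in controls was -37.3 bp (exact permutation p = 0.333), less than the width of 1 bin. With 1 sample left out it ranged from -46.3 to -28.3 bp, and under the other alternatives tried from -42.8 to -34.8 bp. The shift was not seen in every subset of shores. Upstream of starts that point one way, the distance was 579 and 614 bp in the knockouts, against 665 and 649 bp in the controls. Downstream of such starts the groups overlapped, with 575 and 581 bp in the knockouts, against 599 and 576 bp in the controls. They also overlapped at islands with starts in both directions, with 608 and 612 bp in the knockouts, against 626 and 610 bp in the controls. Some gene lists described below, at any island level, also had a distance. The 71 shores of housekeeping genes had the opposite order, with 484 and 445 bp in the knockouts, against 444 and 435 bp in the controls. The 134 shores of developmental regulators had 540 and 670 bp in the knockouts, against 744 and 736 bp in the controls. For the 39 shores of spermatogonial genes the groups overlapped, with 818 and 846 bp in the knockouts, against 845 and 833 bp in the controls. Differences between these subsets were not tested.

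The shape of the profile differed between shores grouped by the level of their island. Of the shores, 25661 flanked an island under 20% in controls, and these gave the rise just described, with 5.75% and 5.20% in the knockouts in the first bin, against 6.34% and 6.79% in the controls. The 718 shores of islands at 80% or more in controls had no rise. In their first bin the level was 53.0% and 53.5% in the knockouts, against 88.2% and 90.5% in the controls, and in their last bin it was 49.1% and 49.4% in the knockouts, against 83.7% and 87.0% in the controls. As a whole these shores retained 59.4%, against 55.1% in shores of islands under 20%. The 525 shores of islands between 20% and 80% retained 57.5%, with 42.3% and 42.6% in the knockouts and 72.1% and 75.5% in the controls. The island class used the control values of the island and not of the shore, but neighbouring CpGs share reads and samples.

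**Figure D3:**
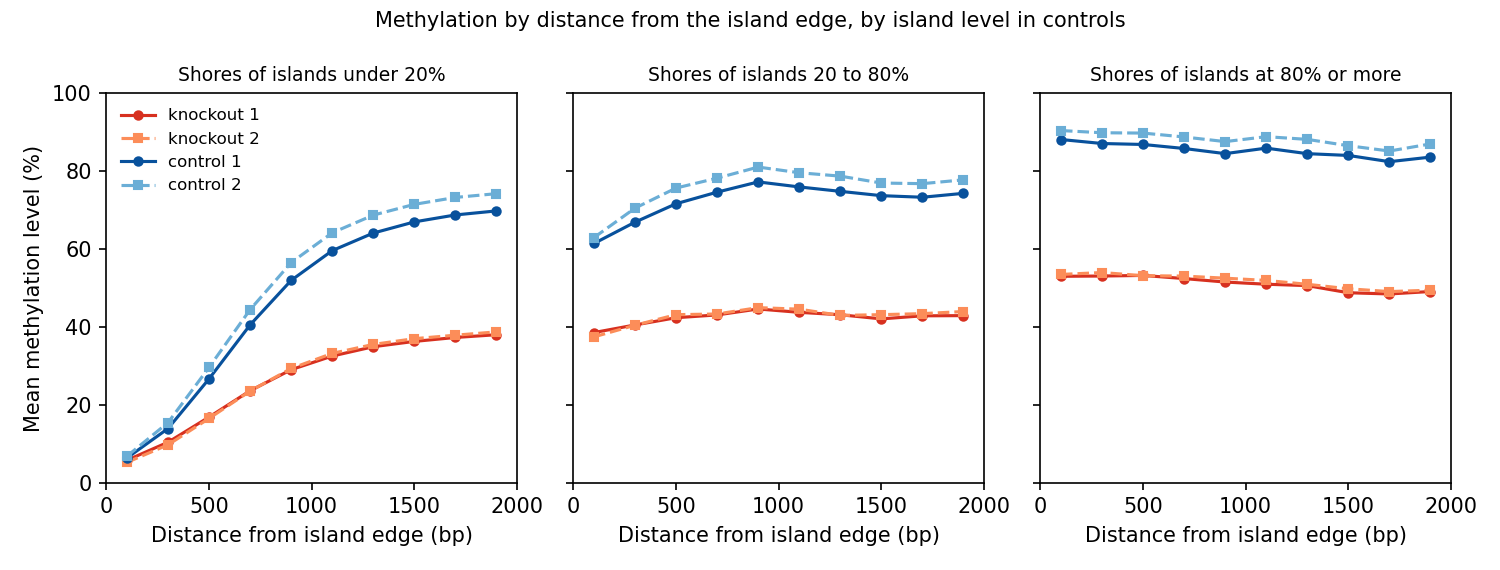
Mean methylation level (%, y axis) in 200-bp bins by distance from the island edge in bp (x axis), 1 line per sample, in 3 panels for shores of islands under 20%, between 20% and 80%, and at 80% or more in controls. In the first panel all samples start between 5.20% and 6.79% and separate outward; in the last panel both knockouts lie near 50% and both controls above 80% at every distance.

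Single cytosines showed the same loss of high levels, with the middle of the range filled. At 1001 to 2000 bp from the edge, 2.02% and 2.07% of cytosines were at 80% or more in the knockouts, against 57.3% and 68.7% in the controls. The share above 20% and under 80% was 77.1% and 78.0% in the knockouts, against 29.8% and 18.9% in the controls. Next to the island, at 1 to 400 bp, the share in this middle class was 17.2% and 15.5% in the knockouts, against 15.7% and 16.2% in the controls, so the groups overlapped there. Cytosines listed at exactly 0 made up 46.3% and 46.8% in the knockouts within 400 bp, against 46.0% and 45.6% in the controls.

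Cytosines close to an island retained more than distal ones even among those of high control level. To avoid reading a level from the sample that set the class, classes were set on 1 control and read in the other. Among cytosines at 80% or more in control 1, those within 400 bp of an island were at 51.3% and 51.9% in the knockouts and 89.1% in control 2, a retained share of 57.9%. Distal cytosines of this class were at 48.3% and 48.9% in the knockouts and 92.4% in control 2, a retained share of 52.6%. With the class set on control 2 and read in control 1, the shares were 59.4% within 400 bp and 54.6% for distal cytosines. At 1001 to 2000 bp the shares were 52.7% and 54.7% under the 2 settings, next to those of distal cytosines. Among cytosines under 20% in control 1 the order was the other way, with 95.7% within 400 bp, where knockouts averaged 4.74% and control 2 was at 4.96%, and 114% for distal cytosines, where knockouts averaged 11.1% and control 2 was at 9.74%. With 1 control read in each class these shares have no test. The classes were not split by island level, and 11534 cytosines within 400 bp were at 80% or more in control 1. Shores of islands at 80% or more in controls held 3311 cytosines in their first bin and 3866 in the second. Those bins retained 59.6% and 60.5%, and the last bin of the same shores 57.7%. Closeness to an island and the level of the island were thus not told apart.

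Shores were then tested one by one with limma, and called when the Benjamini-Hochberg adjusted p was under 0.05 and the difference at least 10 points. In knockouts 20687 shores (76.7% of those tested) were called lower and 14 (0.0519%) higher. Of 504060 distal windows of the same length, 2000 bp, 95.3% were called lower and 0.053% higher in knockouts. Both knockouts were below both controls in 24363 shores (90.3%) and above both in 748 (2.77%). The call followed the control level, since a shore near 0 cannot lose 10 points. Of 4952 shores under 20% in controls, 1.92% were called lower, with medians of 6.42% in knockouts and 8.57% in controls. Of 5137 shores from 20% to 40% in controls, 72.9% were called lower, and of the 3485 at 80% or more in controls all were, with medians of 46.9% in knockouts and 85.4% in controls. Among 11851 islands with both shores measured, both shores were called lower at 7425, 1 of them at 3422 and neither at 1004. The tests rest on a variance shared between shores, and with each shore's own spread alone 16168 were called lower and 4 higher. With every sample centred on its distal windows, on a log2 odds scale on which distal windows fell by 3.16 and shores by 1.46 (medians), 44 were called lower and 24536 higher. A region of low level moves less on that scale than one of high level when both retain the same share.

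**Figure D4:**
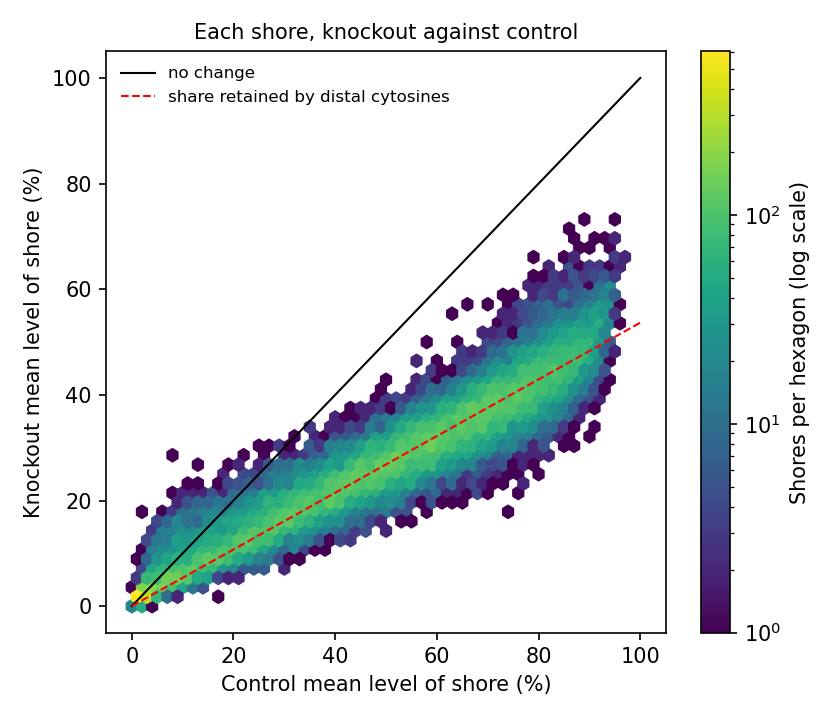
Mean level of each of the 26971 shores in knockouts (%, y axis) against controls (%, x axis), with the number of shores per hexagon on a log color scale. The solid line marks no change and the dashed line the 53.7% retained by distal cytosines; most shores lie along the dashed line, and the points above the solid line have low control levels.

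The largest losses were at shores that were highly methylated in controls, next to islands at 2.01% or less. The right-hand shore of the island at Lsm6 (chr8:78821439-78823438), a gene for a subunit of the RNA-binding Lsm ring, was at 33.8% and 30.6% in the knockouts, against 86.3% and 94.6% in the controls. It fell by 58.3 points (limma adjusted p = 4.59e-32). The shore at Sesn1, a stress-responsive inhibitor of mTORC1 signalling (chr10:41887979-41889978), was at 33.2% and 27.5% in the knockouts, against 80.8% and 93.2% in the controls. The shore at Bmp7, a bone morphogenetic protein gene (chr2:172726019-172728018), was at 18.2% and 19.4% in the knockouts, against 69.6% and 78.1% in the controls, and retained 25.5%. In all of these the knockouts were far below the lower control. Shores are named by genes with an end within 1000 bp of the island, otherwise by the nearest protein-coding gene. Those named by the nearest gene include Sesn1, Bmp7, Ppara, Crlf2, Ano8, Cartpt, Creb3l1, Pdia4, Brinp3, Zfp865, Zfp791 and Erfl.

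The shore at Ereg, which encodes the growth factor epiregulin, fell by 54.7 points to 18.4% and 25.3% in the knockouts, against 72.6% and 80.5% in the controls. That at Ppara, a nuclear receptor of fatty acid metabolism, was at 25.4% and 32.1% in the knockouts, against 78.6% and 87.3% in the controls. The other shores among the 10 largest losses were at A930018P22Rik, Chordc1, Btg1, Frs2 and Txnrd3, and fell by 54.1 to 56.4 points. Of the 10, only Sesn1 lost its call under an alternative checked for named shores, with its own spread (limma adjusted p = 0.0561). Centring on distal windows, which left 44 shores called lower in all, was not checked for named shores.

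The 14 gains were smaller and all at shores under 20% in controls. The largest was beside the island of the long non-coding RNA gene Gm51701 (chr9:123925850-123927849), at 30.03% and 26.3% in the knockouts, against 9.93% and 6.58% in the controls, a difference of 19.9 points (limma adjusted p = 3.38e-15). The Gm51701 island itself was at 47.5% and 48.8% in the knockouts, against 5.10% and 5.24% in the controls. The island at Ano8 was at 17.0% and 16.9% in the knockouts, against 3.16% and 3.74% in the controls. That at Gm11841 was at 12.4% and 12.2% in the knockouts, against 11.1% and 3.22% in the controls. Islands of the others among the 10 largest gains were at 2.22% or less in every sample. The shore at Kcns1, a potassium channel subunit gene (chr2:164171440-164173439), was at 28.1% and 24.8% in the knockouts, against 13.8% and 12.6% in the controls. The shore at Pabpc4l, a gene of the poly(A)-binding protein family (chr3:46445549-46447548), was at 13.99% and 17.95% in the knockouts, against 5.13% and 4.17% in the controls. The 4 gains outside the 10 largest were at Macir, Flg, Tram1l1 and Spata22, the last a gene of meiotic recombination, and were chosen for naming after their values were seen; they came to 10.3 to 10.96 points. Both knockouts were above both controls at all 14.

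At several gains the knockouts differed from each other. The shore at Crlf2, a cytokine receptor gene, was at 24.2% and 11.5% in the knockouts, against 4.07% and 1.45% in the controls. The shore at Rfwd3, a ubiquitin ligase gene of DNA repair, was at 30.6% and 12.6% in the knockouts, against 9.91% and 11.3% in the controls, and its difference was 2.04 points without knockout replicate 1, 19.996 points without knockout replicate 2 and -0.394 points with each sample on its own cytosines. Without knockout replicate 1, Crlf2 (8.74 points), Ano8 (9.65 points), Cartpt (7.26 points) and Creb3l1 (7.80 points) also fell under the 10 points required. Without knockout replicate 2, Pabpc4l was at 9.34 points and 82 shores were called higher. Without control replicate 1, Rfwd3 lost its call (limma adjusted p = 0.0645) and 37 were called higher. Without control replicate 2, Ddx24 (9.69 points) and Creb3l1 (9.81 points) lost their calls. No gain reached a minimum of 20 points, and centring on distal windows was not checked for named shores. Under every other alternative in which they were tested, the shores at Gm51701, Kcns1 and Gm11841 kept their calls.

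**Figure D5:**
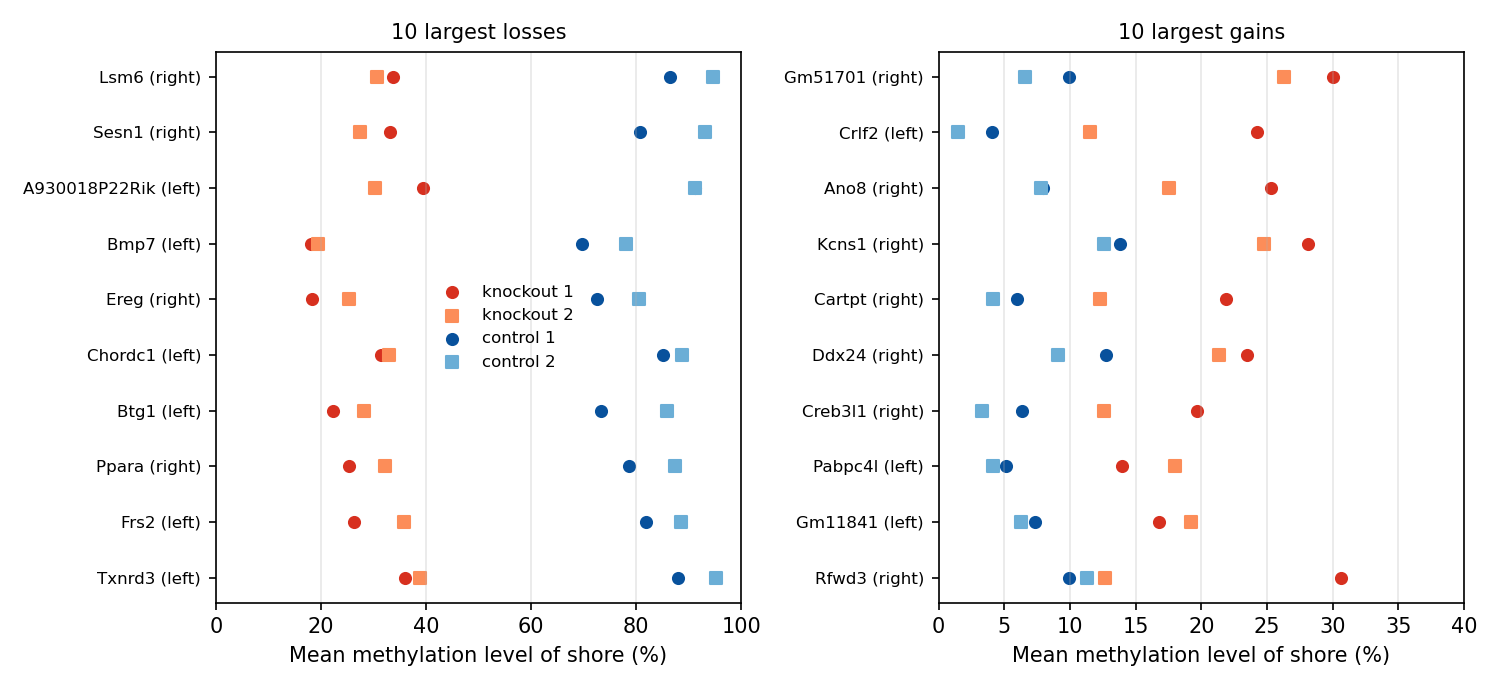
Mean methylation level (%, x axis) of the shores with the 10 largest losses (left panel) and 10 largest gains (right panel), with 1 point per sample (knockouts red and orange, controls blue). Names give a gene with an end within 1000 bp of the island, otherwise the nearest gene, and the side of the island. The losses show both knockouts below 40% and both controls above 69%; among the gains Rfwd3 and Crlf2 show the widest gaps between the knockouts.

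Single shores could rarely be told from distal sequence in the share they retained. In a second limma test, on the log2 level relative to the distal level of the same sample and limited to 20820 shores with a mean of at least 20% over all samples, 90 (0.432%) had retained more and 10 (0.048%) less in knockouts than distal sequence. The limit of 20% used knockout values too, so shores with a control mean under 20% were tested only where knockouts were higher. Among these were Pdia4 and Rpl5, named below, with control means of 18.2% and 19.6%. The limit thus favoured shores that retained more. On simulated shores this test recovered 30% of planted log2 changes of 0.5 and 34% of those of -0.5. It recovered 98% of changes of 1 and 100% of those of -1. The small number of calls therefore does not show that shores and distal sequence retained equal shares. Of 489248 distal windows, 0% were called in either direction. Without adjustment, p was under 0.05 for 3043 shores that retained more and 1878 that retained less, and for 61961 distal windows that retained more and 53795 that retained less, so the counts of calls do not show that shores vary more than distal windows. The shores that retained least included Bmp7 (log2 difference -1.03, limma adjusted p = 0.0472), Erfl (-0.76) and 1600014C10Rik (-0.76), followed by Kansl3, Gm35923, Qsox2, Lsm6, Gab2, Osbpl1a and Chordc1. The shores that retained most had levels between 17.4% and 31.9% in all samples, such as that at Pdia4, which encodes a protein disulfide isomerase, with 24.97% and 23.3% in the knockouts and 17.4% and 19.11% in the controls (log2 difference 1.27). That at Mei1, a gene needed for meiotic DNA breaks, was at 31.9% and 29.6% in the knockouts and 28.1% and 29.4% in the controls. Nkapl, Rpl5, Brinp3, Zfp865, Gm14121, Gm7107, Mir148a and Zfp791 made up the rest of the 10. These counts were not stable, with 5 and 2 shores retaining more without control replicates 1 and 2, 3557 and 4592 without knockout replicates 1 and 2, 0, 0, 2519 and 3515 retaining less in the same order, and 0 either way with each shore's own spread. All 20 shores named here lost their relative call without control replicate 1 (limma adjusted p of 0.0747 to 0.295) and without control replicate 2 (0.161 to 0.359). The log2 difference at Pdia4 was 0.84 with each sample on its own cytosines (limma adjusted p = 0.0656).

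The sides of an island differed. At 5805 islands under 20% in controls whose RefSeq starts all point one way, the downstream shore, toward the gene, was at 27.2% and 27.8% in the knockouts and 48.6% and 52.6% in the controls. The upstream shore of the same islands was at 25.7% and 25.4% in the knockouts and 44.6% and 48.2% in the controls. The downstream shore was thus higher by 1.55 and 2.34 points in the knockouts, against 4.08 and 4.47 points in the controls, a difference of -2.33 points (exact permutation p = 0.333). Both sides retained a similar share, 54.3% downstream and 55.1% upstream. The same held at 3966 islands with 1 shore inside a protein-coding gene and the other outside every gene, where the inside shore was higher by 1.21 and 2.14 points in the knockouts, against 3.66 and 3.98 points in the controls. That difference of -2.15 points was -4.34 points with at least 20 CpGs per shore and -1.10 points with islands of 40 CpGs per 500 bp.

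CpG-dense shores were less methylated, and their rise lay farther out. Among shores of islands under 20%, those with the most listed CpGs (over 31) were at 19.5% and 19.4% in the knockouts, against 33.1% and 35.6% in the controls, and retained 56.7%. Those with the fewest (19 or less) were at 28.7% and 29.0% in the knockouts, against 51.0% and 55.2% in the controls, and retained 54.3%. The dense shores reached 0.5 of their last-bin level at 687 and 704 bp in the knockouts and 759 and 744 bp in the controls, and the sparse shores at 442 and 455 bp in the knockouts and 487 and 471 bp in the controls. In both sets the knockout distances were shorter than both control distances, unlike in some of the subsets by start described above.

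Shores were also described by the genes whose ends lie within 1000 bp of the island, in 10 gene lists chosen with earlier results of these data known. Over all shores 76.7% were called lower and the median difference was -23.1 points. Shores of housekeeping genes were among the more methylated, and 63 of 71 were called lower and 0 higher, with medians of 34.0% in knockouts and 65.2% in controls. Eef1a1, a translation elongation factor gene, fell by 49.3 points, to 25.04% and 43.0% in the knockouts, against 81.8% and 84.8% in the controls. The shore at Actb, the beta-actin gene, fell by 43.0 points.

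Shores of developmental regulators, which are targets of Polycomb repression, were mostly unmethylated in both groups. Of 134 at 54 genes, 41 were called lower and 0 higher, the median difference was -2.66 points, and medians were 4.83% in knockouts and 7.48% in controls. The 2 largest losses on the list were at Barhl2 and Pax2. The shore at Barhl2, a homeobox gene of neurons, was at 23.7% and 30.7% in the knockouts, against 71.0% and 81.5% in the controls. The shore at Pax2, a paired-box gene of kidney development, was at 17.1% and 24.3% in the knockouts, against 64.5% and 71.3% in the controls, and retained 30.5%.

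The germ cell lists differed among themselves in their counts and in their control medians. These medians were 51.6% for meiotic break and recombination genes, 27.2% for spermatogonial genes and 51.8% for germline genes silenced in somatic tissues. Median retained shares were 58.6%, 57.4% and 66.1% in that order, against 55.4% over all shores. The shares called lower were 92.3%, 59.0% and 68.2%, against 76.7% of all shores. Of 26 shores of genes for meiotic breaks and recombination, 24 were called lower and 0 higher (median difference -23.9 points). The shore at Msh5, a MutS homologue of crossover formation, was at 22.7% and 35.8% in the knockouts, against 64.3% and 81.7% in the controls. Of 39 shores of spermatogonial genes 23 were called lower and 0 higher (median -13.0 points), among them Pax7, a marker of rare stem cells, at 24.9% and 30.3% in the knockouts, against 70.8% and 77.0% in the controls, and Egr4, a zinc finger gene that fell by 33.8 points. Of 22 shores of germline genes that somatic tissues silence by methylation, 15 were called lower and 0 higher (median -20.8 points). At Hormad1, a gene of the meiotic chromosome axis, the shore was at 44.5% and 42.2% in the knockouts, against 91.8% and 95.3% in the controls, and at Mael, a piRNA pathway gene, at 36.3% and 42.2% in the knockouts, against 74.6% and 79.9% in the controls. Of 22 shores of genes for the DNA methylation machinery, 18 were called lower and 0 higher, and Tet3, a methylcytosine dioxygenase gene, fell by 37.7 points and Mbd3, a subunit gene of the NuRD complex, by 37.8 points.

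The remaining lists served to look at other cells and at imprinting. Islands of the germline genes had sample medians of 17.7% and 10.8% in the knockouts, against 6.53% and 5.63% in the controls. Maternally methylated imprinted regions are unmethylated in male germ cells and about equally methylated and unmethylated in somatic cells. Islands at the ends of genes with such imprinting had 8.93% and 5.68% in the knockouts, against 4.43% and 2.58% in the controls. They were taken by gene ends and need not be the imprinted regions. Both sets were higher in the knockouts, and the part of other cells in the results was not tested. Of 28 shores of the maternally methylated genes, 15 were called lower and 0 higher (median -11.1 points), and Igf2r and Slc38a4 fell by 41.8 and 31.6 points. Of 3 shores of paternally methylated genes 2 were called lower and 0 higher, at Rasgrf1 (33.9 points) and Dlk1 (18.9 points). The islands flanked at Rasgrf1 and Dlk1 averaged 1.14% and 1.43% in the controls, so neither island was itself methylated. Of 23 shores of Sertoli cell genes 13 were called lower and 0 higher (median -16.3 points), with Cldn11 at 24.7% and 39.0% in the knockouts, against 73.3% and 79.1% in the controls, and Sox8, which fell by 43.7 points. Of the 15 Leydig and interstitial cell genes listed, 2 had a shore, Lhcgr and Insl3. All 4 of their shores, from 2 islands, were called lower and 0 higher. The Insl3 island also lies at an end of Jak3. Some genes are in more than 1 list. With each shore's own spread, the calls of Msh5 (limma adjusted p = 0.0896), Egr4 (0.0800), Cldn11 (0.0517) and Igf2r (0.0686) were lost.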

How the data were processed

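Per the labels' protocols, male germ cells of 2 knockout and 2 control samples were sequenced by post-bisulfite adaptor tagging. The deposited table, made by the authors, gives the percent of reads methylated at each CpG cytosine, on mm10 per the submitters' processing notes. Its title names a minimum of 10 reads. Read depth is unknown, so every value had the same weight and no interval per cytosine was computed (aligner and caller: not given in the sources used here). Of 395568 CpGs in RefSeq promoter sequences of GRCm38.p6, 99.1% were listed in the table.

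Adjacent listed positions were paired as 1 CpG. Levels are means over cytosines with a value in all 4 samples. Shores, and distal windows in a separate fit, were tested with limma 3.58.1 in R 4.3.3, trended and robust, on the log2 odds of the level as a fraction, log2((m + 0.01)/(1 − m + 0.01)); the relative test used log2(m + 0.01) minus that of the distal mean. The prior degrees of freedom were infinite for 89.5% of shores, whose p-values therefore use pooled variance. Single values per sample had an exact two-sided permutation test. Both limma tests of shores were tried on simulated data with planted changes. The test of loss recovered 22% of planted losses of 10 points, 84% of those of 20 points and 100% of those of 30 points.

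Named shores were the 10 largest losses and gains among calls, the 10 largest changes each way in the relative test, and the 2 largest changes in each gene list, of which 1 is not reported here. Members and lists were chosen with earlier results of these data known. Gene ends within 1000 bp name an island, otherwise the nearest gene. Replicate numbers give no stated pairing. Alternatives were other island, CpG, distal and scaling settings, and each sample left out. Other tools were SciPy 1.17.1, NumPy 2.4.6, pandas 2.3.3, Matplotlib 3.10.9, PyArrow 21.0.0 and Python 3.11.15.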

Additional observations from a re-analysis of the deposited data

How the results depend on the processing

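The mean difference, the log2 ratio to distal sequence, the half-rise distance, the first and last bins and the inside-minus-outside contrast kept their sign under every alternative tried. The other bins and the downstream-minus-upstream contrast were not recomputed. With 1 sample left out, the mean difference ranged from -22.2 to -18.9 points, the log2 ratio difference from 0.03 to 0.06, the first-bin difference from -2.68 to -2.15 points, the last-bin difference from -35.9 to -31.5 points, the inside-minus-outside contrast from -2.61 to -1.68 points and the half-rise difference from -46.3 to -28.3 bp. Shores called lower then numbered 20045 to 21169, shores called higher 10 to 82, distal windows called lower 475673 to 480654, shores retaining more 2 to 4592 and shores retaining less 0 to 3515.

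Islands of 40 CpGs per 500 bp gave -15.2 points for the mean, -0.466 points in the first bin, -1.10 points for the side contrast, 13670 shores lower, 6 higher, 4 retaining more and 1 less. A minimum of 20 CpGs gave -4.34 points for the side contrast, 11036 shores lower and 5 higher of 15255 tested, 166318 distal windows lower of 182790, 376 shores retaining more and 123 less. Equal weight per shore gave -3.07 points in the first bin. A minimum difference of 20 points gave 0 shores higher by limma, where 423 were higher at an unadjusted p under 0.05, and no minimum gave 415. Own spread gave 4 higher, and 0 retaining more or less, with 2092 and 1203 at an unadjusted p under 0.05. Centring on distal windows gave 44 lower and 24536 higher. A pseudocount of 0.05 gave 411 retaining more and 66 less. Own cytosines per sample gave 5 retaining less, nearest edges 6. Rfwd3 was at -0.394 points on own cytosines. The cause of these shifts was not tested, except that a stricter minimum tests fewer shores.

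The samples share only a replicate number, and the differences between replicates correlated at 0.105 over shores. With the replicate block 20687 shores were lower and 14 higher, as without it, and 1761 retained more and 1033 less. Depth is unknown, so what it limits cannot be stated.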

Other observations

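Shores lost methylation to a similar degree on every autosome. The retained share ranged from 54.8% on chromosome 19 to 56.9% on chromosome 18, and the difference from -22.6 points on chromosome 4 to -16.4 points on chromosome 13.

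Shores of 1547 islands with RefSeq starts in both directions were at 25.8% and 26.1% in the knockouts, against 45.4% and 48.8% in the controls. Shores of 5404 islands without a listed start, which need not be promoters, were lower, at 22.8% and 22.7% in the knockouts, against 39.5% and 42.6% in the controls. The retained shares were 55.1% and 55.4%. All of these islands were under 20% in controls. Where the shores of 2 islands overlap, levels were 16.3% in both knockouts, against 27.7% and 29.8% in the controls, and 46.5% of such shores were called lower, against 81.3% of shores with no overlap.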
